A study of Mus musculus with 6 samples.

Results

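De novo fatty acid synthesis builds long-chain fatty acids from acetyl-CoA. The 10 genes described here are Acly, Acss2, Acaca, Acacb, Fasn, Me1, Thrsp, Srebf1, Mlxipl and Slc2a5. They were chosen by symbol as the enzymes of this route, the malic enzyme that feeds it, its regulators and a fructose transporter. All 10 were found among the 21959 genes of the deposited table, and all 10 were among the 14875 genes that passed the expression filter. The libraries came from the whole thickness of the back skin of male C57BL/6 mice, 3 given vehicle and 3 given rebamipide. Mice were shaved on the back in telogen, the resting phase of the hair cycle, at 7 weeks of age. The vehicle was 30% dipropylene glycol in 70% distilled water, and the treated mice received 3% rebamipide, a quinolinone drug used to protect the gastric mucosa. Both were applied to the skin daily for 7 days. The mice were a separate cohort from those of the study's other assays. Whole skin is a mixed tissue that can include epidermis, hair follicles, sebaceous glands, dermis, fat and muscle.

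In the route as it is known, citrate leaves the mitochondrion and Acly splits it into acetyl-CoA, while Acss2 makes acetyl-CoA from acetate. Acaca and Acacb are the acetyl-CoA carboxylases that turn acetyl-CoA into malonyl-CoA, and Fasn extends malonyl-CoA into palmitate with NADPH, part of which comes from Me1. Srebf1 (SREBP-1) and Mlxipl (ChREBP) are transcription factors that drive these genes in response to insulin and to sugar, and Thrsp is a small lipogenic protein of fat and liver that was found through its response to thyroid hormone. In skin the route is known from the fat layer under the dermis and from the sebaceous glands.

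The promoters of 5 of these genes are shown first, because the genes are read together below and their start regions hold different known motifs. Each is the 150 bases before the RefSeq start site in GRCm38.p6, written 5′ to 3′ on the strand of the gene. Capitals mark matches on either strand to TCACCC (the core of a sterol regulatory element), CCAAT (the NF-Y box), CACGTG (the E-box core of the element that ChREBP uses in pairs) and GGGCGG (the GC box). Positions are counted back from the start site, and each match is given by its first base.
Fasn, chr11:120824548-120824697, minus strand: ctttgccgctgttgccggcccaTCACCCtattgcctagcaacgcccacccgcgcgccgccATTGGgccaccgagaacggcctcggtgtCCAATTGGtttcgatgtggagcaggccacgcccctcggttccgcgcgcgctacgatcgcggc
Thrsp, chr7:97417551-97417700, minus strand: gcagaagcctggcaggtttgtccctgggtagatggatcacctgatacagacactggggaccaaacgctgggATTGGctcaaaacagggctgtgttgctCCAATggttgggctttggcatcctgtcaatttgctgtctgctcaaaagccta
Srebf1, chr11:60210472-60210621, minus strand: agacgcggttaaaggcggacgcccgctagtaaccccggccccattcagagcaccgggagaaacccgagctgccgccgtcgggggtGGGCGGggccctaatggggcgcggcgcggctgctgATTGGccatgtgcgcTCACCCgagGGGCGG
Mlxipl, chr5:135089740-135089889, plus strand: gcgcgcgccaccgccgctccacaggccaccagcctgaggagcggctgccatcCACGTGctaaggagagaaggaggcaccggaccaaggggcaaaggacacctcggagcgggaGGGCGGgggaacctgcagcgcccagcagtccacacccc
Me1, chr9:86695915-86696064, minus strand: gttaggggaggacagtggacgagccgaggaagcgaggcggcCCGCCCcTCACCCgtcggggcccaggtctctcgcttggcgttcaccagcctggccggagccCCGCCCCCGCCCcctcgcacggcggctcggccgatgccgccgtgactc

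The Fasn sequence held TCACCC at -128 and the NF-Y box at -90, -62 and -59, of which the last 2 overlap on opposite strands. Thrsp held the NF-Y box at -79 and -52 and no match to the other 3 motifs. Srebf1 held TCACCC at -15, close to an NF-Y box at -30 and a GC box at -6, and a further GC box at -65. Mlxipl was the only one of the 10 genes with CACGTG, at -98, and its sequence also held a GC box at -38. Me1 held TCACCC at -102 and GC boxes at -109, -48 and -42. In the 250 bases before the start, TCACCC was present for 4 of the 10 genes (Acss2, Fasn, Me1 and Srebf1) and in 13.8% of all 32851 RefSeq windows of that length. The NF-Y box was present for 7 of 10 genes and in 33.8% of windows. The GC box was present for 6 of 10 and in 32.7%, and CACGTG for 1 of 10 and in 6.02%. The 10 genes have 14 start windows between them, so a gene with several starts had more chances of a match, and the windows shown for Srebf1, Mlxipl and Me1 were picked for their matches. A match is a description of the letters in the window.

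Total counts ranged from 38676018 to 39915276 in controls and from 32709801 to 34706852 after rebamipide. The share of counts from mitochondrial genes was 2.59 to 5.36% in controls and 13.3 to 21.96% after rebamipide, and the 10 most abundant genes held 7.20 to 10.6% against 20.2 to 30.4%. Several libraries stood apart from the label of full-thickness skin in telogen. Rebamipide 3 held 0 counts of Krt14 and 4 of Krt5, the basal keratins, while Krt14 was at 360.7 and 237.8 TMM-normalized CPM (counts scaled to library size) in rebamipide 1 and 2 and at 523 to 1307 in the vehicle libraries. Markers of growing hair follicles summed to 12631 and 5581 CPM in vehicle 1 and 2, to 134 CPM in vehicle 3 and to 675 CPM in rebamipide 1, although the mice were shaved in telogen. Rebamipide 2 and 3 both held 0 counts of Krt71, Krt25, Krt31 and Krt34, hair keratins among these markers of growth. That absence by itself does not depart from a telogen label. In these libraries Col1a1, a collagen of dermal fibroblasts, was at 527 and 237 CPM, against 3849 CPM in rebamipide 1 and 3218 to 3908 CPM under vehicle. Counts of upregulated genes by edgeR are therefore also given without rebamipide 3, and those of the 10 genes without vehicle 1, vehicle 2 and rebamipide 2 as well. In bulk tissue, fewer cells of a type and less RNA per cell cannot be told apart, and this holds for every difference below.

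Rebamipide upregulated 6 of the 10 genes and downregulated 0 at an adjusted p under 0.05 (edgeR's quasi-likelihood test with Benjamini-Hochberg adjustment over all genes). Over all genes tested, 14.1% were upregulated and 6.51% were downregulated. That balance depended on the scaling between libraries, since with total counts alone 8.46% were higher and 25.2% were lower. The upregulated genes were Thrsp, Acacb, Mlxipl, Acaca, Fasn and Srebf1, with log2 fold changes from 1.26 to 3.34. The remaining 4, Acly, Acss2, Slc2a5 and Me1, did not pass. By TMM-normalized CPM all treated libraries exceeded all controls for 7 of the 10, as did 24.5% of all genes tested, and for 0 of the 10 they all fell below, as did 24.0%. By FPKM they exceeded all controls for 6 of the 10, with Acly overlapping, and for 13.0% of all genes tested. The median log2 fold change was 2.11 for the 10 genes and -0.17 for all genes tested. At an unadjusted p under 0.05, 7 of the 10 were higher and 0 were lower, against 20.9% and 18.8% of all genes tested. DESeq2 called 7 of 10 higher, against 16.6% of all genes it tested, with Acly as the additional gene. The study's methods name DESeq2 and call a gene at an unadjusted p under 0.05 with a log2 change larger than 1 in size. On the DESeq2 fit this rule called 8 of 10 higher, with Acss2 added, against 12.6% of all genes, and on the edgeR fit it called 7, with Acly, against 14.3%.

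**Figure D1:**
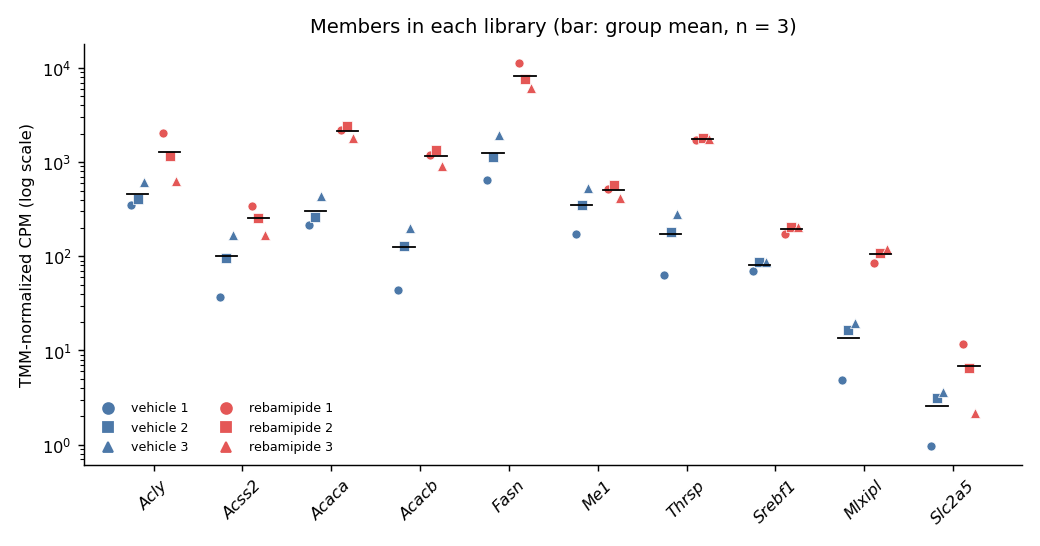
TMM-normalized CPM of the 10 genes in each library on a log scale, with vehicle in blue, rebamipide in red, the marker shape giving the replicate and the bar the mean of 3 libraries. For Acss2, Me1 and Slc2a5 the colours overlap, and for the other 7 genes they do not.

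Fasn, the multifunctional synthase (chr11:120696672-120715373 in GRCm39), was at 646, 1146 and 1949 CPM under vehicle and at 11265, 7587 and 6092 CPM under rebamipide. The lowest treated library was above the highest control, although each group spanned a wide range. The fitted log2 fold change was 2.74 ± 0.55 (SE), a 6.67-fold rise, with an edgeR adjusted p of 0.022. As a share of all counts in a library, Fasn took 0.0824, 0.141 and 0.236% under vehicle and 1.05, 0.566 and 0.460% under rebamipide. In the order of genes by FPKM it stood at ranks 622, 358 and 195 under vehicle and at ranks 26, 48 and 80 under rebamipide, so it was among the 100 most abundant transcripts only after rebamipide. The 10 genes together took 0.204 to 0.520% of counts under vehicle and 0.913 to 1.82% under rebamipide.

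Acaca, the cytosolic carboxylase (chr11:84020498-84292477), was at 213, 262 and 436 CPM under vehicle and at 2216, 2420 and 1811 CPM under rebamipide. The groups did not overlap, and the gene rose 7.08-fold (log2 fold change 2.82 ± 0.38, edgeR adjusted p = 0.010). Acacb, the carboxylase at the mitochondrial outer membrane, whose malonyl-CoA is known to hold back fatty acid import through Cpt1 (chr5:114284596-114388822), was at 43.7, 129 and 202 CPM under vehicle. It was at 1205, 1353 and 903 CPM under rebamipide, and rose 9.24-fold (log2 fold change 3.21 ± 0.59, edgeR adjusted p = 0.019). Both isozymes were therefore higher in all 3 treated libraries.

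The levels of the 2 carboxylases were also compared inside each library, where scaling between libraries has no part. The log2 ratio of Acacb to Acaca, from FPKM, was -1.46, -0.20 and -0.28 under vehicle and -0.05, -0.01 and -0.18 under rebamipide. The treated libraries were near equal levels of both, and the groups did not overlap, but the gap between vehicle 2 or 3 and rebamipide 3 was small. The difference of the means was 0.56 (exact permutation p = 0.1, two-sided, the smallest that 3 against 3 allows), and it was 0.16 without vehicle 1. Fasn and Acaca kept a similar ratio, with a log2 value of 2.61 ± 0.32 (SD, n = 3) under vehicle and 2.56 ± 0.38 (SD, n = 3) under rebamipide, and their ranges overlapped.

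Acetyl-CoA supply was less uniform. Acly (chr11:100367179-100418826) was at 347, 407 and 622 CPM under vehicle and at 2035, 1171 and 637 CPM under rebamipide. The groups were apart by only a narrow margin between vehicle 3 and rebamipide 3, and the log2 fold change was 1.48 ± 0.49 (edgeR adjusted p = 0.077). DESeq2 gave 1.46 with an adjusted p of 0.021. Acss2 (chr2:155359868-155427644) was at 36.6, 95.1 and 168.4 CPM under vehicle and at 341, 253 and 167.7 CPM under rebamipide. Here rebamipide 3 was just under vehicle 3, so the groups overlapped, and the log2 fold change was 1.34 ± 0.57 (edgeR adjusted p = 0.135). With each library left out in turn, the log2 fold change of Acly ran from 0.98 without rebamipide 1 to 1.81 without rebamipide 3. That of Acss2 ran from 0.92 without vehicle 1 to 1.96 without vehicle 3. The smallest edgeR adjusted p in these fits was 0.0527 for Acly and 0.0727 for Acss2. Within libraries, the log2 ratio of Acly to Fasn was 0.16, -0.44 and -0.60 under vehicle and -1.42, -1.64 and -2.21 under rebamipide, without overlap (difference -1.46, exact permutation p = 0.1, two-sided).

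Me1, the cytosolic malic enzyme that makes NADPH (chr9:86463424-86578006), was at 172, 351 and 534 CPM under vehicle and at 521, 572 and 415 CPM under rebamipide. The treated range lay within and just above the upper part of the control range. The log2 fold change was 0.51 ± 0.43 (edgeR adjusted p = 0.397), and with total counts as the only scaling it was -0.09, so its sign depended on the scaling. It was 0.15 without vehicle 1 and 0.95 without vehicle 3. Slc2a5, the fructose transporter GLUT5 (chr4:150203740-150228626), was the least abundant of the 10. It was at 0.962, 3.13 and 3.61 CPM under vehicle, from 48 to 169 counts, and at 11.6, 6.59 and 2.18 CPM under rebamipide, from 57 to 352 counts. Rebamipide 3 was below 2 of the 3 controls, and the log2 fold change was 1.40 ± 0.75 (edgeR adjusted p = 0.208). It was 0.78 without rebamipide 1 and 1.83 without rebamipide 3.

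Thrsp (chr7:97062145-97066937) showed the largest fold change of the 10. It was at 63.1, 179.8 and 279.1 CPM under vehicle and at 1709, 1824 and 1748 CPM under rebamipide. The treated libraries were nearly equal while the controls spanned a wide range. The rise was 10.1-fold (log2 fold change 3.34 ± 0.57, edgeR adjusted p = 0.015). Its relative Mid1ip1, which is known to bind and activate the carboxylases, was at 61.5, 63.0 and 74.0 CPM under vehicle and at 45.2, 41.4 and 30.9 CPM under rebamipide (log2 fold change -0.76 ± 0.21, edgeR adjusted p = 0.049). This call was near the threshold and was kept in 9 of 16 alternatives. Leaving out any 1 of the vehicle libraries, rebamipide 2 or rebamipide 3 ended it, with edgeR adjusted p from 0.082 to 0.155. The log2 ratio of Thrsp to Mid1ip1 within a library was 0.00, 1.47 and 1.88 under vehicle and 5.20, 5.42 and 5.78 under rebamipide (difference 4.35, exact permutation p = 0.1, two-sided).

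The transcription factors both rose, by different amounts. Mlxipl (chr5:135118744-135167236) was at 4.91, 16.5 and 19.7 CPM under vehicle and at 85.9, 107 and 121 CPM under rebamipide, a 7.63-fold rise (log2 fold change 2.93 ± 0.53, edgeR adjusted p = 0.018). Srebf1 (chr11:60089915-60113407) was at 69.3, 86.7 and 87.3 CPM under vehicle and at 172, 206 and 203 CPM under rebamipide, a 2.39-fold rise (log2 fold change 1.26 ± 0.19, edgeR adjusted p = 0.012). The size of the Srebf1 value depended on the scaling, at 0.63 with total counts alone and 0.61 on log2(FPKM + 1). Neither gene's groups overlapped, and Srebf1 had the smallest standard error of the 10 genes. The log2 ratio of Mlxipl to Srebf1 was -3.79, -2.36 and -2.12 under vehicle and -0.98, -0.92 and -0.72 under rebamipide. Srebf1 stayed the more abundant per length in each library, and the distance between them was shorter in every treated library (difference 1.89, exact permutation p = 0.1, two-sided). The counts per gene do not separate the SREBP-1a and SREBP-1c transcripts of Srebf1 or the alpha and beta transcripts of Mlxipl.

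**Figure D2:**
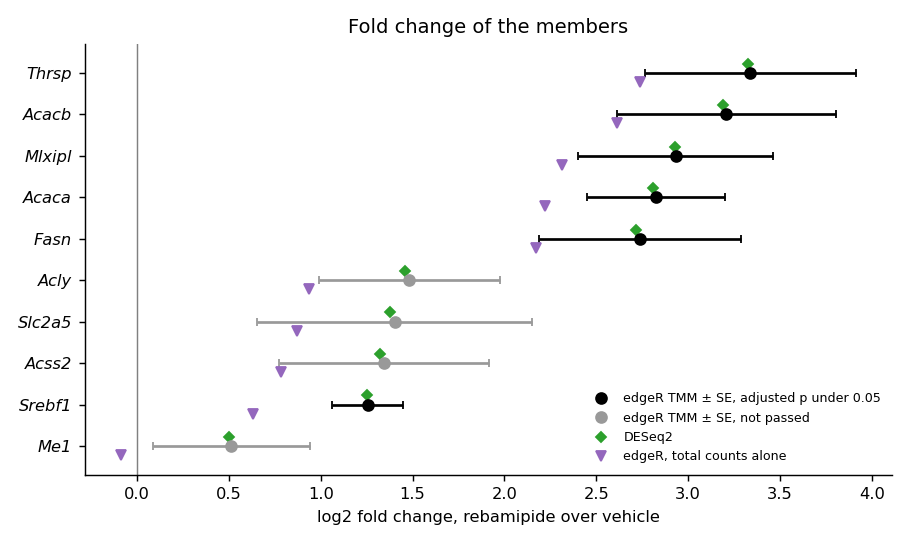
Log2 fold change of each gene, rebamipide over vehicle, as circles with the standard error (black where the edgeR adjusted p was under 0.05, grey where it was not), with DESeq2 as diamonds and edgeR on total counts alone as triangles. DESeq2 and TMM values lie together, total counts give lower values, and Me1 alone falls below 0 with total counts.

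The scaling moved all genes together. With total counts in place of TMM, the median log2 fold change of all genes tested went from -0.17 to -0.78. Relative to these medians, Fasn was at 2.91 with TMM and 2.95 with total counts, Srebf1 at 1.43 and 1.41, and Me1 at 0.69 with both. The same count of 6 genes passed under both scalings.

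The calls depended more on which libraries entered the comparison than on the scaling. Without rebamipide 3, the library with 0 counts of Krt14, 6 of the 10 genes were higher by edgeR, against 6.60% of all genes in that fit, with a log2 fold change of 2.93 for Fasn (adjusted p = 0.037) and 3.35 for Thrsp (adjusted p = 0.0336). Without vehicle 2, edgeR called 0 of 10, and 6 were higher at an unadjusted p under 0.05, against 15.6% of all genes. Without rebamipide 2 it also called 0 of 10, and 7 were higher at an unadjusted p under 0.05, against 15.6% of all genes there too. In these fits 0 and 1 of all genes passed. The log2 fold changes were 2.65 and 2.81 for Fasn and 3.32 in both for Thrsp. DESeq2 called 6 of 10 in each of these 2 fits, against 16.3% of all genes without vehicle 2 and 12.2% without rebamipide 2. The limma-voom counts were 0 and 1, and its share over all genes in these fits was not taken. Without vehicle 1 edgeR called 5 of 10, with 1507 of 15055 genes higher in that fit, and Fasn was at 2.40 (adjusted p = 0.057).

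Per length, the order of the 10 genes differed between groups. In the vehicle libraries Fasn had a mean FPKM of 140 ± 71 (SD, n = 3), followed by Me1 at 112 ± 55, Acly at 107 ± 31 and Thrsp at 97.5 ± 58.8, and these 4 overlapped in range. Acaca at 21.9 ± 7.9, Srebf1 at 17.8 ± 1.8, Acacb at 15.9 ± 9.8 and Acss2 at 12.1 ± 7.7 formed a lower tier whose neighbours also overlapped. Mlxipl was at 3.04 ± 1.68, and Slc2a5 was lowest at 0.926 ± 0.496. In the rebamipide libraries Thrsp at 650 ± 66 and Fasn at 631 ± 285 overlapped and were both clear of Acly at 205 ± 138. Me1 at 106 ± 23, Acaca at 102 ± 20 and Acacb at 97.2 ± 23.6 overlapped, and all of their libraries were above those of Srebf1 at 27.6 ± 0.7. Acss2 was at 20.7 ± 9.5, Mlxipl at 15.1 ± 1.2 and Slc2a5 at 1.70 ± 1.36. Thrsp thus had rank 4 under vehicle and rank 1 under rebamipide, and Me1, whose mean FPKM hardly differed between groups, had ranks 2 and 4.

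Most adipocyte markers were higher after rebamipide as well. Adipoq, the adipocyte hormone adiponectin, was at 187 to 543 CPM under vehicle and at 1076 to 1773 CPM under rebamipide, and 6 of 9 adipocyte markers were higher, with a summed level of 1650 to 4910 CPM against 12445 to 22102 CPM. The 3 others did not pass, with log2 fold changes of -0.53 for Lep, -0.23 for Retn and 0.34 for Cfd. Without rebamipide 3 the adipocyte count was 4 of 9, the brown adipocyte count 5 of 7 and the endothelial count 2 of 4. The sebaceous count there was 1 higher and 1 lower of 8. Over all genes 14.1% were higher and 6.51% lower with all libraries, and 6.60% and 2.49% without rebamipide 3. Of 7 brown adipocyte markers 6 were higher, with a summed level of 37.6 to 146 CPM against 4958 to 12877 CPM. Ucp1, the uncoupling protein that defines brown fat, had 0 counts in each vehicle library and 2669 to 8591 CPM in the treated libraries. Sebaceous gland markers, from the other lipogenic tissue of skin, summed to 673 to 1974 CPM under vehicle and 1112 to 1411 CPM under rebamipide, but the sum hid opposite directions. Pparg, which fat also expresses, passed as higher, and Mgst1 was at 1.43 on the log2 scale without passing. The other 6 of 8, Awat1, Awat2, Far2, Krt79, Soat1 and Acsbg1, had log2 fold changes from -2.45 to -1.74 and did not pass, and 4 of them (Awat2, Far2, Soat1 and Acsbg1) were below every control in all 3 treated libraries. The other tissues varied between libraries too. Fast muscle markers summed to 4824 to 23935 CPM against 244 to 30512 CPM and fibroblast markers to 12002 to 17735 CPM against 1850 to 15112 CPM, with 0 of 6 past the test in each list. Endothelial markers summed to 179 to 402 CPM against 887 to 1284 CPM, with 3 of 4 higher. Keratinocyte markers summed to 2050 to 6638 CPM against 2.52 to 1868 CPM, and growing hair follicle markers to 134 to 12631 CPM against 0.00 to 675 CPM, and 0 of 6 passed in either list. The part of these cell types in the values of the 10 genes was not tested.

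Set against Adipoq in the same library, the 10 genes did not move together. Thrsp, Acacb and Mlxipl were higher relative to Adipoq in every treated library than in any control, by 1.42, 1.28 and 0.98 on the log2 scale. Adipoq had the smallest log2 fold change of the 6 adipocyte markers that were higher, 2.05 against up to 3.31 for Fabp4 and 3.89 for Pnpla2. The values of 3.34 for Thrsp, 3.21 for Acacb and 2.93 for Mlxipl were all smaller than that of Pnpla2, so this order depended on the marker chosen. Me1 and Srebf1 were lower relative to Adipoq in every treated library than in any control, with differences of -1.52 and -0.90, though for Srebf1 vehicle 3 and rebamipide 1 were nearly equal at -4.67. The other 5 overlapped. For Fasn the log2 ratio was -1.20, -0.98 and -1.14 under vehicle and 0.40, -0.52 and -1.21 under rebamipide (difference 0.67, exact permutation p = 0.4, two-sided). It was 1.05 without rebamipide 3 and 0.25 without rebamipide 1. Against Acadvl, the mitochondrial enzyme that begins the breakdown of very long chain fatty acids, Fasn had a log2 ratio of 1.53, 2.02 and 2.71 under vehicle and 1.57, 0.20 and -0.23 under rebamipide, with overlap (difference -1.58, exact permutation p = 0.2, two-sided). In all 19 gene pairs were compared within libraries, the 10 with Adipoq included, and adjusted over them the smallest exact permutation p was 0.19.

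**Figure D3:**
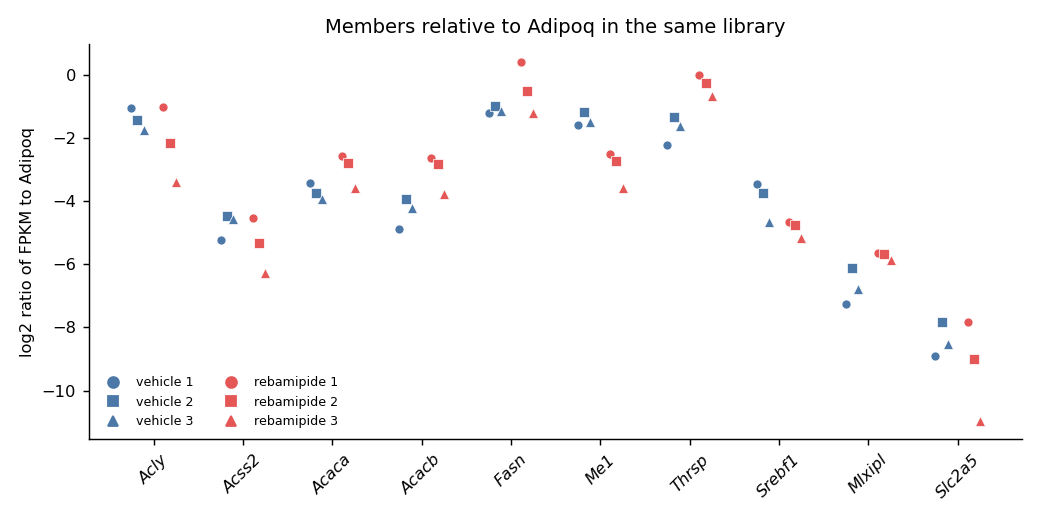
Log2 ratio of the FPKM of each gene to that of Adipoq in the same library, by group and replicate as in the plot of CPM. Thrsp, Acacb and Mlxipl lie higher in red than in blue, Me1 and Srebf1 lower, and the other 5 overlap.

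**Figure D4:**
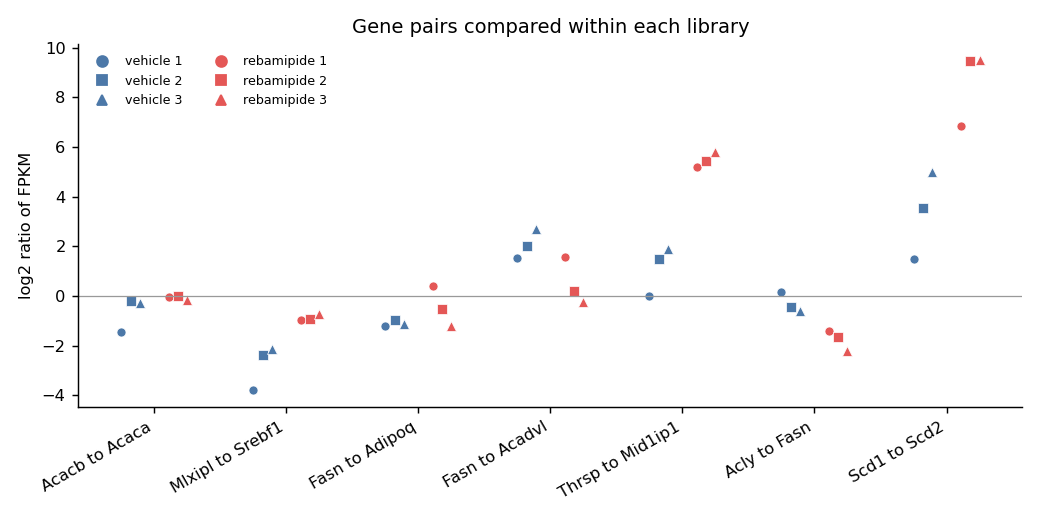
Log2 ratios of FPKM for 7 gene pairs within each library, where 0 is an equal level per length. Scd1 to Scd2 and Thrsp to Mid1ip1 differ most between groups, and the pairs of Fasn with Adipoq and with Acadvl overlap.

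The wider pathway was read from 65 further genes in 9 lists by role. Of these 64 were in the table under the symbol searched and 60 passed the expression filter. Of the 60 genes, 28 were upregulated and 2 were downregulated by the same edgeR test, against the 14.1% and 6.51% of all genes given above, and the median log2 fold change was 0.87. With total counts alone 21 were higher and 10 were lower. Without rebamipide 3 edgeR called 18 higher and 0 lower, with 2 lower at an unadjusted p under 0.05, against 14.6% of all genes. Over all genes the calls without that library also dropped, from 2093 to 1012 higher (6.60%) and from 968 to 382 lower (2.49%). DESeq2 called 29 higher and 0 lower there, with 12.9% of all genes higher. Without vehicle 2 edgeR called 0 in either direction, with 33 higher and 5 lower at an unadjusted p under 0.05 (15.6% and 11.9% of all genes). In that fit DESeq2 called 35 higher and 6 lower, with 16.3% of all genes higher. Without rebamipide 2 edgeR also called 0, with 30 higher and 4 lower at an unadjusted p under 0.05 (15.6% and 10.9% of all genes). There DESeq2 called 28 higher and 2 lower, with 12.2% of all genes higher. The DESeq2 shares of all genes lower were not taken with a library left out.

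**Figure D5:**
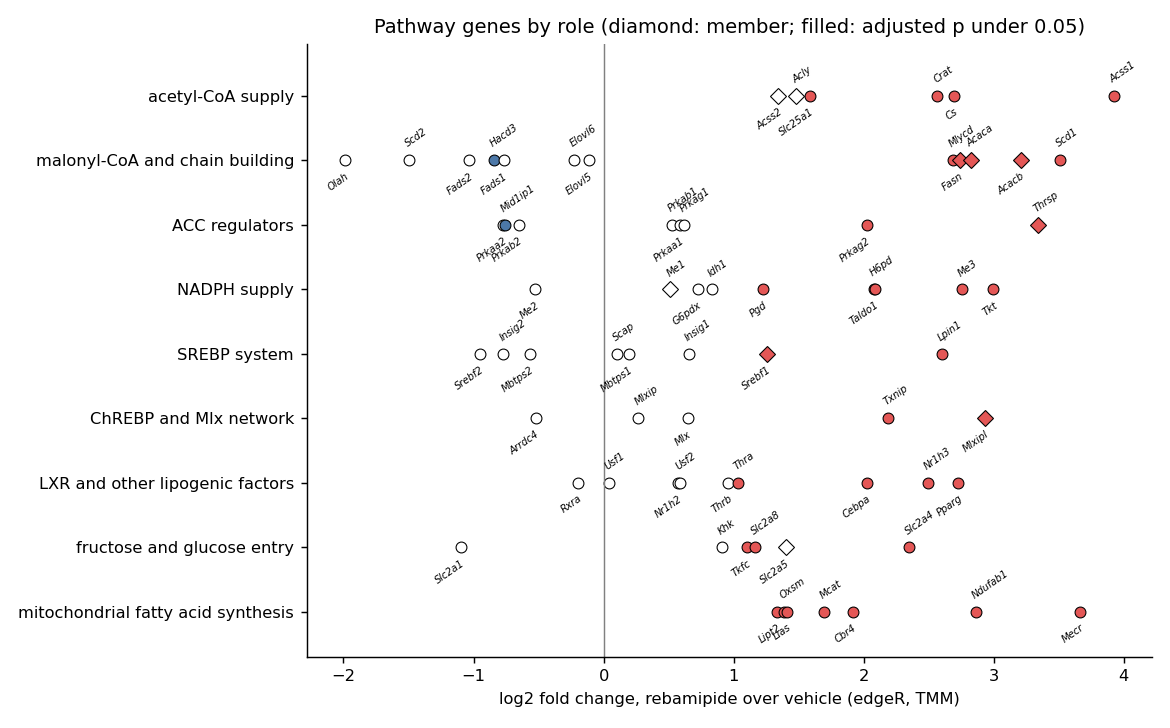
Log2 fold change (rebamipide over vehicle) of the pathway genes that passed the expression filter, 1 row per role. Diamonds are the 10 genes, circles the other genes, and filled symbols have an edgeR adjusted p under 0.05. Acetyl-CoA supply and mitochondrial fatty acid synthesis lie fully to the right of 0, and the chain-building row spreads on both sides.

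Around the acetyl-CoA step, 4 of 4 further genes rose, and 3 passed without rebamipide 3. They were the mitochondrial acetyl-CoA synthetase Acss1 (log2 fold change 3.92 ± 0.50), citrate synthase Cs (2.69 ± 0.34), carnitine acetyltransferase Crat (2.56 ± 0.33) and the citrate carrier Slc25a1 (1.59 ± 0.35). The Slc25a1 call was kept in 8 of 16 alternatives. It was lost with total counts alone (edgeR adjusted p = 0.076), with the replicate number as a block (edgeR adjusted p = 0.066) and on both FPKM scales. It was also lost without vehicle 1, vehicle 2, rebamipide 2 or rebamipide 3. Acss1 was at 14.5, 22.8 and 31.6 CPM under vehicle and at 190, 347 and 508 CPM under rebamipide, so the acetate enzyme of the mitochondrion passed the test while its cytosolic counterpart Acss2 did not. The difference between the 2 was not tested.

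Of 9 further genes around malonyl-CoA and chain building, 2 rose and 1 fell, and without rebamipide 3 only 1 passed, as higher. Mlycd, which decarboxylates malonyl-CoA and so opposes the carboxylases, rose by 2.69 ± 0.31 on the log2 scale. Scd1, the main stearoyl-CoA desaturase of fat and sebaceous gland, was at 2284, 6598 and 11660 CPM under vehicle and at 39046, 108979 and 86058 CPM under rebamipide (log2 fold change 3.51 ± 0.87, edgeR adjusted p = 0.039). This call was kept in 10 of 16 alternatives. It was lost with upper quartile scaling and without any 1 of the vehicle libraries, rebamipide 2 or rebamipide 3, with edgeR adjusted p from 0.052 to 0.174. Its paralog Scd2 was at 902, 627 and 412 CPM under vehicle and at 383, 172 and 134 CPM under rebamipide (-1.49 ± 0.50, edgeR adjusted p = 0.080). The log2 ratio of Scd1 to Scd2 was 1.50, 3.55 and 4.98 under vehicle and 6.83, 9.47 and 9.48 under rebamipide, without overlap, which with 3 against 3 gives an exact permutation p of 0.1. Hacd3, a dehydratase of chain elongation, was the gene that fell (-0.84 ± 0.19, edgeR adjusted p = 0.029). The elongases Elovl6 (-0.23 ± 0.52) and Elovl5 (-0.12 ± 0.28) and the desaturases Fads1 (-0.77 ± 0.28) and Fads2 (-1.03 ± 0.59) did not pass. Scd1 and Scd2 are close in sequence, so reads shared between them could be split unevenly by the counting.

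Among the 7 further regulators of the carboxylases, the AMPK subunit gene Prkag2 rose (2.02 ± 0.31) and Mid1ip1 fell with the edgeR fit on all libraries, while the other 5 AMPK subunit genes did not pass. That was 14.3% of the list in each direction, against 14.1% higher and 6.51% lower over all genes, so the share higher was near that of all genes. Without rebamipide 3, 1 of the 7 was higher and 0 were lower. AMPK is known to inhibit the carboxylases by phosphorylation, which RNA counts do not show. NADPH supply had 5 of 8 further genes upregulated, and 4 without rebamipide 3. These were the transketolase Tkt (3.00 ± 0.26), Me3 (2.76 ± 0.57), the transaldolase Taldo1 (2.09 ± 0.24), H6pd (2.08 ± 0.35) and Pgd (1.23 ± 0.20), of which all but Me3, a mitochondrial malic enzyme, belong to the pentose phosphate route or its counterpart in the endoplasmic reticulum. Tkt was at 245, 199 and 242 CPM under vehicle and at 1603, 1971 and 1898 CPM under rebamipide. G6pdx, the first enzyme of that route, had a log2 fold change of 0.72 ± 0.29 (edgeR adjusted p = 0.118) and did not pass. Of the 8 further genes, Idh1 at 0.83 ± 0.24 (edgeR adjusted p = 0.057) and Me2 at -0.52 ± 0.33 (edgeR adjusted p = 0.274) did not pass either. Nor did Me1, as given above.

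In the SREBP system Lpin1, a phosphatidate phosphatase that also restrains SREBP, was the gene of 7 further ones that passed by edgeR (2.60 ± 0.52, higher). That was 14.3% of the list, near the 14.1% of all genes that were higher. Srebf2, the factor of cholesterol synthesis, was at -0.95 ± 0.33 (edgeR adjusted p = 0.088) and lower than every control in the 3 treated libraries. The retention proteins were at 0.66 ± 0.20 for Insig1 and -0.77 ± 0.23 for Insig2, with an edgeR adjusted p of 0.060 for each, while DESeq2 called both (adjusted p = 0.014 and 0.031). With total counts alone they were at 0.04 and -1.39. In the ChREBP network Txnip, a known ChREBP target that limits glucose uptake, rose by 2.19 ± 0.47 and was the only gene of 4 tested that passed, and 0 passed without rebamipide 3 by edgeR and 1 by DESeq2. The ChREBP partner Mlx was at 0.65 ± 0.18 (edgeR adjusted p = 0.052), and Arrdc4, another known target, was at -0.52 ± 0.24. Pklr, the liver pyruvate kinase, did not pass the expression filter.

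Of 9 further lipogenic factors, 4 rose, and 3 passed without rebamipide 3. They were the adipocyte regulators Pparg (2.73 ± 0.51) and Cebpa (2.02 ± 0.34), the oxysterol receptor Nr1h3 (LXR alpha, 2.50 ± 0.47), which is known to induce Srebf1, and the thyroid hormone receptor Thra (1.03 ± 0.19). Nr1h3 was at 7.49, 15.5 and 22.7 CPM under vehicle and at 56.2, 94.7 and 106.7 CPM under rebamipide. Among the genes of sugar entry the insulin-responsive glucose transporter Slc2a4 (GLUT4) rose by 2.35 ± 0.56, Slc2a8 by 1.16 ± 0.28 and Tkfc, which acts late in fructose breakdown, by 1.10 ± 0.27. The calls of Slc2a8 and Tkfc were each kept in 7 of 16 alternatives, with log2 fold changes down to 0.43 and 0.32. That of Slc2a4 was kept in 13. Of the 5 further genes of this list that were tested, 0 passed without rebamipide 3 by edgeR and 3 by DESeq2. Ketohexokinase Khk, the first fructose enzyme, was at 0.91 ± 0.26 (edgeR adjusted p = 0.056). Slc2a4 was at 29.0, 90.7 and 135.5 CPM under vehicle and at 373, 483 and 442 CPM under rebamipide, while Slc2a5 stayed under 12 CPM in every library.

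The separate fatty acid synthesis of mitochondria, which is known to make the octanoyl precursor of lipoic acid, rose in 7 of 7 genes tested, of which 5 passed without rebamipide 3. The reductase Mecr rose most (3.66 ± 0.37), followed by the acyl carrier protein Ndufab1 (2.86 ± 0.30), Cbr4 (1.91 ± 0.28), Mcat (1.69 ± 0.24), Lias (1.41 ± 0.22), Oxsm (1.39 ± 0.33) and Lipt2 (1.33 ± 0.27). The Oxsm call was kept in 7 of 16 alternatives and the Lipt2 call in 11, while each of the others was kept in 14. Mecr was at 19.8, 15.5 and 12.4 CPM under vehicle and at 120, 235 and 249 CPM under rebamipide. Its level was highest in rebamipide 3, the library with the highest share of mitochondrial counts, whereas Fasn, Acaca, Acacb, Acly, Acss2, Me1 and Slc2a5 were at their lowest treated level there. Mlxipl was at its highest in that library, and Thrsp and Srebf1 lay between the other 2 treated libraries.

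Across libraries the pattern of Acaca was among the closest to that of Fasn. Likeness was measured as the root mean square distance between log2 CPM values centred on their own mean over the 6 libraries. Acaca was at a distance of 0.285 and ranked 2 among all genes tested. The others of the nearest 5 were Tgtp1 (0.163), Hpd (0.315), Odad4 (0.328) and Adcy10 (0.358), each of which was under 10 CPM in every library. Of the 10 genes, Acacb ranked 17, Mlxipl 50, Thrsp 51, Acss2 417, Acly 836, Srebf1 1297, Slc2a5 1305 and Me1 2264.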

How the data were processed

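RNA-seq was performed on poly-A RNA from 200 mg of dorsal skin per mouse. The authors deposited 1 table with read counts and FPKM for 6 libraries, and all 12 columns were matched to samples by name. Per the labels' processing notes, the tools were fastp 0.22.0, HISAT2 2.1.0 and HTSeq 0.9.1 with GRCm39. The strand setting of the counting is not given in the sources used here, so antisense reads cannot be separated. The FPKM deposited by the authors equal counts divided by gene length and library total (largest relative difference 5.11e-15).

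Counts were tested with edgeR 4.0.16 in R 4.3.3 (TMM, filterByExpr, quasi-likelihood test, Benjamini-Hochberg adjustment, threshold 0.05). DESeq2 1.42.0 and limma 3.58.1 were alternatives, with a pseudocount of 1 or 0.1 on FPKM. Fold changes have edgeR's standard error. Within-library ratios used a two-sided exact permutation test. At these depths, 3 counts, the limit that a count of 0 allows, equal 0.0601 to 0.117 TMM-normalized CPM, which covers counting error only. Replicate libraries were distinct (chi-square over degrees of freedom 80.8 to 759), and their numbers did not pair the samples. The fits were tried on simulated counts with planted changes. Those counts did not have the uneven tissue content of these libraries, so the trial does not cover it.

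The 10 genes and all lists were chosen with earlier results of these data known. Named genes are the 10, the genes of each list with an adjusted p under 0.05 or among its 4 smallest p-values, defining markers and the 5 genes nearest to Fasn. Other list genes, the pairs with Acaca, Mid1ip1, Scd2 and Acly, and the ratios to Adipoq other than that of Fasn were chosen after the data were seen. Promoters came from RefSeq GRCm38.p6 and were not mixed with GRCm39 positions.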

Additional observations from a re-analysis of the deposited data

How the results depend on the processing

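Over 16 alternatives for each of the 10 genes, 144 of 160 values kept their direction and side of the threshold, 14 lost the call, 1 gained it (Acly with DESeq2) and 1 reversed (Me1 with total counts, -0.085). The count of genes higher was 0 to 6 when each library was left out, 7 with DESeq2 and with the rule in the study's methods on the edgeR fit, 8 with that rule on DESeq2 (added after seeing the data), 5 with the block described next and 6 under the other alternatives. DESeq2 with a library left out, added after seeing the data, gave 6 to 9, and limma-voom 0 to 7. Over all genes DESeq2 called 12.9% higher without rebamipide 3, where it called 9 of the 10 genes. It called 16.3% of all genes higher without vehicle 2 and 12.2% without rebamipide 2. No share over all genes was taken for limma-voom with a library left out. Same-numbered libraries did not deviate together (correlations 0.011, -0.041 and 0.022). With the replicate number as a block the count was 5, with Fasn at an adjusted p of 0.053. Of the further pathway genes, 28 were higher, 23 with the block, and 0 to 36 with each library left out. The count lower was 2 with all libraries (Hacd3 and Mid1ip1) and 2 other genes with the block, where Hacd3 (adjusted p 0.065) and Mid1ip1 (0.113) lost the call and Scd2 (0.028) and Srebf2 (0.039) gained it. It was 4 with DESeq2, 10 with total counts alone, 1 with no filter, 10 with log2(FPKM + 1), 10 with log2(FPKM + 0.1), 1 with the rule in the study's methods on edgeR, 1 with it on DESeq2, and 0 to 5 with each library left out. Reversals were Prkag1 with log2(FPKM + 1) at -0.00045 and log2(FPKM + 0.1) at -0.0011, Prkab1 with total counts at -0.106 and with these FPKM scales at -0.055 and -0.057, and Mlxip with total counts at -0.334 and with the FPKM scales at -0.316 and -0.352. FPKM and total counts share a scaling to library totals. Over all genes 2093 were higher and 968 lower, against 1258 and 3752 with total counts alone and 2670 and 2572 with DESeq2. The cause of the other changes was not tested. The difference in the log2 ratio was 0.16 to 0.79 for Acacb to Acaca, 1.37 to 2.21 for Mlxipl to Srebf1, 0.25 to 1.05 for Fasn to Adipoq and -2.11 to -1.21 for Fasn to Acadvl with each library left out. With 3 mice a group, permutation cannot reach a p under 0.1.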

Other observations

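The deposited annotation gave broader lists around the same route. In the KEGG pathway Fatty acid biosynthesis, 14 further genes were tested, of which 7 (50.0%) were higher and 1 was lower, against 14.1% and 6.51% of all genes, with a median log2 fold change of 1.07. Without rebamipide 3 it had 6 higher and 0 lower. Beside genes already described, it held the acyl-CoA synthetases, which activate fatty acids. Acsl1, the main form in fat, was at 3.61 ± 0.56 (edgeR adjusted p = 0.013) and Acsf3, the mitochondrial malonyl-CoA synthetase, at 2.98 ± 0.21 (edgeR adjusted p = 0.0094). Acsl4, which prefers arachidonic acid, was lower at -1.35 ± 0.33 (edgeR adjusted p = 0.038). Under the GO term fatty acid biosynthetic process, 63 further genes were tested, of which 16 (25.4%) were higher and 3 were lower, with a median log2 fold change of -0.14 against -0.17 for all genes. Without rebamipide 3 it had 11 higher and 4 lower of 64 tested.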
